A study of Mus musculus with 6 samples.

Results

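The zinc finger gene cluster of distal mouse chromosome 4 was described from the Hi-C contacts of P19 cells, a line of mouse embryonal carcinoma with the capacity for neuronal differentiation. The cluster was taken as the 2.6 Mb from 145.0 to 147.6 Mb of chromosome 4 (mm9), and its members were the listed pairs of 5 kb bins with at least 1 bin centred there. It held 4393 of the 3654014 listed pairs, which was 0.120% of the pairs on nuclear chromosomes, while chromosome 4 as a whole held 209742. In 3889 of the cluster pairs both bins lay inside the cluster, and in 504 pairs 1 bin did. The region was chosen because its stretch from 146 to 147 Mb lost listed pairs at 48 h, so all values of T48 against T0 or T6 are given as a description, and nothing is read from calls made on them. The comparison of T6 with T0 was not used in the choice, but it shares the T0 libraries with the comparison that was.

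KRAB zinc finger proteins are repressors that bind DNA through arrays of zinc fingers and recruit the corepressor TRIM28 through their KRAB domain. TRIM28 in turn brings the histone methyltransferase SETDB1, and the complex is known in embryonic cells for the silencing of retrotransposons. Their genes arose by tandem duplication, so neighbours in a cluster share long stretches of nearly identical sequence, and short reads from such stretches can match several places. Hi-C joins DNA fragments that are near each other in the fixed nucleus, and each junction is placed by mapping both of its ends.

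The 6 libraries fell into 3 groups of 2 replicates. T6 and T48 were P19 cells given all-trans retinoic acid (ATRA) at 1e-06 M for 6 h and 48 h, and T0 was untreated P19 cells. All groups were the same line grown as a monolayer, and no untreated cells at 6 h or 48 h were analysed, so the effects of ATRA and of culture time cannot be told apart. Nothing in the labels says that replicates came from separate cultures, and p-values therefore reflect the spread between these libraries alone, which may be technical. The authors' list gives a read pair count per library for each pair of bins, and both replicates of a time point were always listed together or at 0 together. A 0 is therefore a pair not listed at that time and not a measured absence of contact. Over all nuclear chromosomes the listed counts of a library summed to between 23003295 and 50154643, and in the cluster they summed to between 30520 and 54751. The median listed pair of the cluster had 8 or 9 counts in every library, and read pairs carried no molecular identifiers. Intervals on such counts would cover counting error only, and not the spread between libraries.

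The promoters of the zinc finger genes are shown because they make the duplication visible base by base. Of 18 KRAB zinc finger genes looked for by symbol, 16 were found on chromosome 4 in the RefSeq gene table and 13 had a promoter sequence there, with 16 promoters in all (GRCm38.p6, 250 bases before to 50 bases after the gene start). The build of the Hi-C list is mm9, so these genes were not placed at positions of the list. Capitals below mark bases inside any 50-base word that also occurs in the promoter of another gene, and lower case marks the remaining bases.
Zfp600, chr4:146156577-146156876, plus strand: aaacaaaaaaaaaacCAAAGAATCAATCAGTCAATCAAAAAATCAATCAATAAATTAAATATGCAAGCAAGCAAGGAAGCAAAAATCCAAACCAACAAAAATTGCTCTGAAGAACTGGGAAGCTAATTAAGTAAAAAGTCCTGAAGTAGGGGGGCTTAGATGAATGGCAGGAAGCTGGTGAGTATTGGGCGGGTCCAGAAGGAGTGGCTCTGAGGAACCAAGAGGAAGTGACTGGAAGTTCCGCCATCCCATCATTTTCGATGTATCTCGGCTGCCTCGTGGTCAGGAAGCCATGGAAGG
Rex2, chr4:147021600-147021899, plus strand: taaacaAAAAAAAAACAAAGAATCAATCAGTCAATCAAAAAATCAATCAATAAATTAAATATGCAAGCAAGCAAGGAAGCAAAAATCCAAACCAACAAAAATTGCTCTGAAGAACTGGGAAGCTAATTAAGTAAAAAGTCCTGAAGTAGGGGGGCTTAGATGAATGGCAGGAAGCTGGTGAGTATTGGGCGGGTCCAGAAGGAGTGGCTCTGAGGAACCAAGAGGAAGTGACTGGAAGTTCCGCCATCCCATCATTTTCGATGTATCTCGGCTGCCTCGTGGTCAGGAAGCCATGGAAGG
Zfp979, chr4:147642459-147642758, minus strand: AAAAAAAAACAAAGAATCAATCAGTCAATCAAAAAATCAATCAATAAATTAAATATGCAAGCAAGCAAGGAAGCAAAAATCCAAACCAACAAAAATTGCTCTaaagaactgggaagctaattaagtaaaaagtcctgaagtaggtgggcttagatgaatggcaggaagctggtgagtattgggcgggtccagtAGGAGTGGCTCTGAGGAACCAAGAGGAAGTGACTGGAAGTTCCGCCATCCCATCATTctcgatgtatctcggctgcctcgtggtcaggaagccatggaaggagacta
Zfp933, chr4:147848369-147848668, minus strand: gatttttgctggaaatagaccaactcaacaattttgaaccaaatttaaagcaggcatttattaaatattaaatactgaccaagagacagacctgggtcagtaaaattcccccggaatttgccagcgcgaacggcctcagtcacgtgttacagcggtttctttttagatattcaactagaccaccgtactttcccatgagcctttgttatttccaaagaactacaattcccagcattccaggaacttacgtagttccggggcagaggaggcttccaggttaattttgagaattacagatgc
The promoters shown for Zfp600 and Rex2, which both encode zinc finger proteins, were identical at 99.3% of aligned bases, and 285 and 294 of their 300 bases lay in shared words. The promoter of Zfp979 was 94.8% identical to the one shown for Zfp600 and had 159 bases in shared words. The promoter of Zfp933 had 0 such bases, as did a second promoter of Zfp600 (from 146157440), which is not shown. Across the list, 11 of 13 genes (84.6%) had at least 1 promoter that shared a 50-base word with another gene's promoter. Counted the same way, 2370 of all 27025 genes with a promoter in the table (8.77%) did. Identity to the closest other promoter of the list ranged from 50.3% to 99.3%, with a median of 87.1%.

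Coverage of the cluster by the list was uneven. Of its 520 bins, 188 (36.2%) were in no listed pair at any time, against 26.9% of bins on all chromosomes and 26.5% on chromosome 4. The longest runs of unlisted bins were 150 kb from 146365001 to 146515000 and 95 kb from 145775001 to 145870000, followed by 3 runs of 50 kb. The listed pairs were gathered in a few segments between these gaps. The 100 kb from 145100001 to 145200000 had 641 listed pairs at T0 and 625 at T6, with 392 at T48, and the 100 kb from 145000001 had 609, 602 and 510. The 100 kb from 146800001 had 501, 472 and 275. By contrast the 100 kb from 145800001 had 1, 0 and 1.

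**Figure D1:**
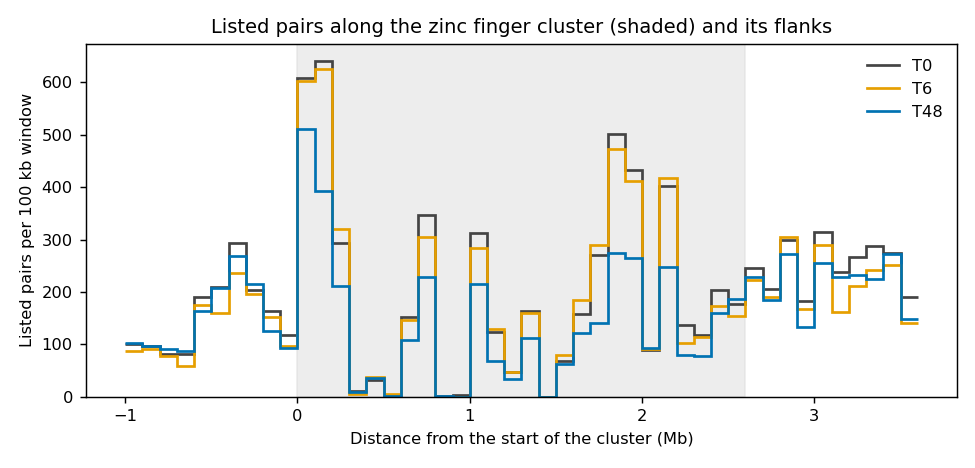
Listed pairs per 100 kb window (y axis) against the distance from the start of the cluster in Mb (x axis) at T0, T6 and T48, with the cluster shaded. Peaks at the left edge and near 1.8 Mb stand beside windows with almost no listed pair, and the T48 line lies lowest over most of the peaks, for example 392 pairs in the window at 0.1 Mb against 641 at T0.

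Libraries with the replicate number 2 stood apart from those with number 1 in the cluster, and this touches every count below. Over all chromosomes the listed counts of replicate 2 summed to 0.591 of those of replicate 1 for T0, 0.567 for T6 and 0.679 for T48. In the cluster the same ratio was 1.14, 1.14 and 1.06. Counts were summed in 50 kb windows and scaled to the library sum, and 39 cluster windows had at least 20 counts in every library. The log2 ratio of replicate 2 over replicate 1 in the cluster had a median of 1.40 at T0 and 1.31 at T6, with 0.91 at T48, against −0.02, −0.02 and −0.03 in the 48920 windows outside it.

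The excess of replicate 2 had a sharp end within the cluster. All 31 windows from 145 to 147.2 Mb were above 0 at every time, with a range of 0.75 to 4.61 at T0 and a median of 1.63, 1.59 and 0.99 at T0, T6 and T48. The 8 windows from 147.2 to 147.6 Mb had medians of −0.13, −0.14 and −0.15, and 0, 0 and 2 of them were above 0. A log2 ratio of at least 0.8 at all 3 times was found in 21 of the 39 cluster windows and in 268 windows elsewhere (0.548%), spread over 19 chromosomes. The largest other groups were 8 windows near 143 Mb of chromosome 4 and 7 windows each near 85 Mb of chromosome 1 and 7 Mb of chromosome 17. What part the placement of reads in duplicated sequence has in this excess was not tested.

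**Figure D2:**
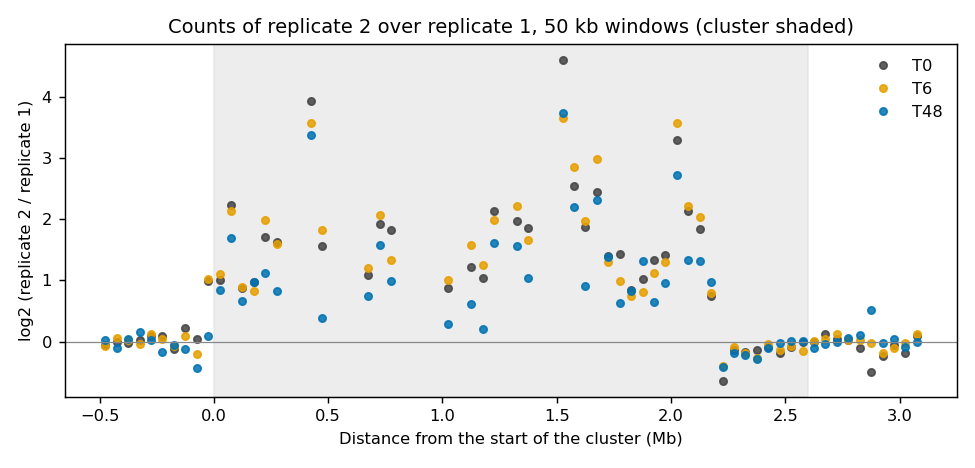
The log2 ratio of replicate 2 over replicate 1 for each 50 kb window (y axis) against the distance from the start of the cluster in Mb (x axis), with 1 point per window and time point and the cluster shaded. Points from 0 to 2.2 Mb lie above 0 at T0, T6 and T48, and the points after 2.2 Mb lie near or below 0 up to the end of the cluster, with a median of −0.13 at T0.

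Listed pairs of the cluster reached unusually far. Their median distance was 855 kb for T0, 870 kb for T6 and 855 kb for T48, against 75, 75 and 85 kb on all chromosomes. At least 500 kb separated 65.4%, 65.1% and 63.3% of the cluster pairs, against 11.6%, 11.4% and 15.2% of all pairs. Pairs under 20 kb, which are the commonest contacts in Hi-C, were 5.51%, 5.04% and 5.64% of the cluster list, against 25.7%, 26.8% and 27.3% of the whole list. What part the placement of reads in duplicated sequence has in the far pairs, here and in the paragraphs below, was not tested.

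Near contacts were thinner and far contacts denser than on all chromosomes. Between 5 and 20 kb, 9.97% of the possible cluster pairs were in the T0 list, 8.94% in the T6 list and 7.08% in the T48 list, against 31.8%, 28.0% and 32.2% on all chromosomes. Between 1 and 2 Mb the cluster had 2.49%, 2.47% and 1.71% of its possible pairs listed, against 0.0379%, 0.0312% and 0.0561% on all chromosomes. The cluster value was thus 65.9, 79.3 and 30.4 times that of all chromosomes at this distance. Of the 2179 pairs of 1 to 3 Mb that were listed at all 3 times anywhere, 497 (22.8%) lay in the cluster, and 8 of the strongest 100 did.

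**Figure D3:**
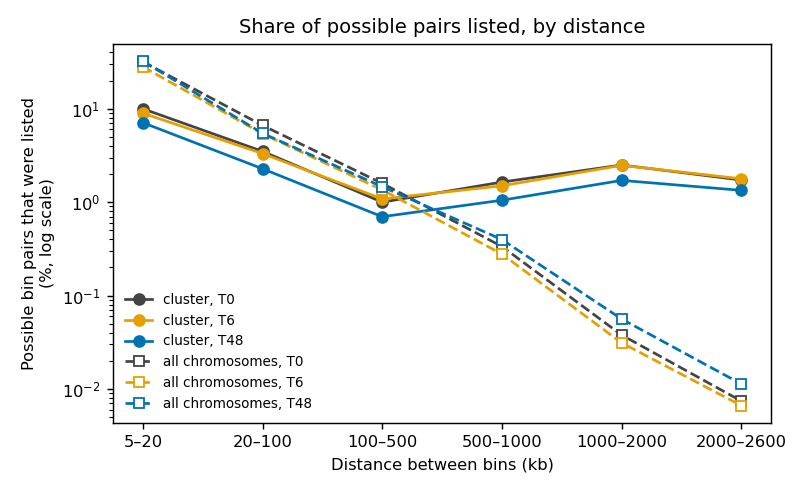
Percent of possible bin pairs that were listed (y axis, log scale) by distance between bins in kb (x axis), for the cluster (filled circles) and all chromosomes (open squares) at T0, T6 and T48. The cluster lies below all chromosomes up to 500 kb (9.97% against 31.8% at T0 at 5 to 20 kb, and 0.999% against 1.59% at 100 to 500 kb) and above them beyond, with 1.72% against 0.00743% at T0 in the last bin.

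The far pairs joined the same few segments with each other. Divided into 200 kb blocks, the block at 145.0 Mb and the block at 146.8 Mb were joined by 320 pairs in the T0 list, 314 in the T6 list and 218 in the T48 list. The block at 145.0 Mb had 167, 170 and 128 pairs with the block at 147.0 Mb, and 143, 127 and 95 with the block at 145.6 Mb. Inside the block at 145.0 Mb there were fewer, 102, 108 and 78. Pairs of at least 500 kb with both bins in the cluster had a listed neighbour shifted by 1 bin at both ends in the same direction in 35.2%, 33.5% and 28.7% of cases, and in opposite directions in 33.7%, 29.9% and 25.9%. On all chromosomes the shares were 8.43%, 7.54% and 9.55% for the same direction and 8.35%, 7.33% and 9.32% for opposite directions.

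**Figure D4:**
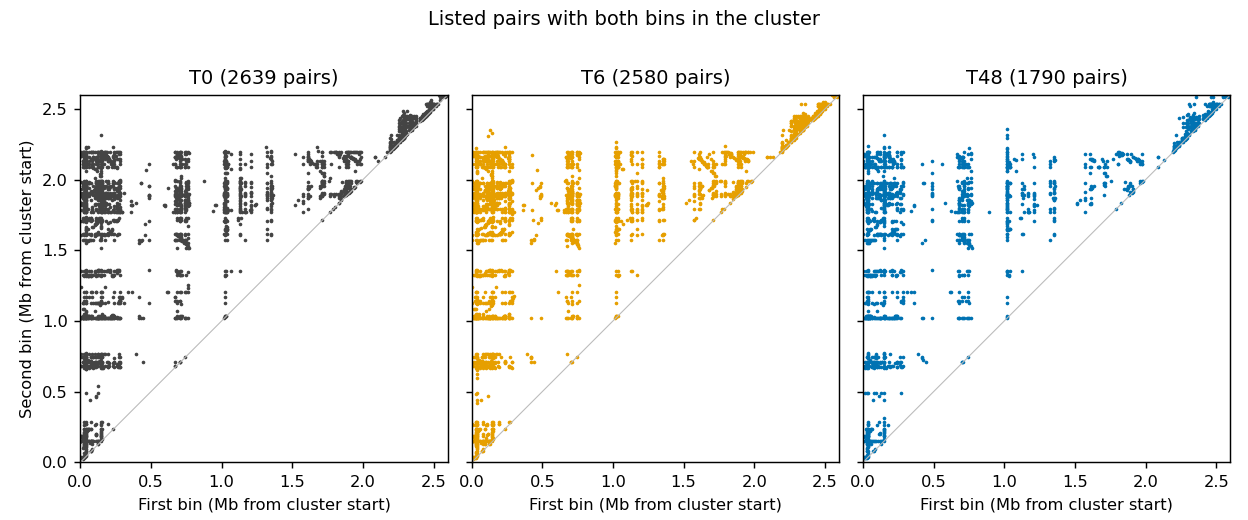
Position of the first bin (x axis) and the second bin (y axis) of every listed pair with both bins in the cluster, in Mb from the cluster start, in 1 panel each for T0, T6 and T48. The pairs fall in bands where a few segments meet, the bands end near 2.2 Mb, the last 0.4 Mb is filled along the diagonal, and the panels hold 2639, 2580 and 1790 pairs.

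Individual bins show the same pattern. The bins with the most listed pairs were centred at 145147500, with 141 pairs in the T0 list, 140 in T6 and 137 in T48, and at 145037500, with 140, 144 and 138. The bin at 146022500 followed with 126, 120 and 122, and the bin at 145027500 with 105, 114 and 98. These 4 bins had similar numbers at all 3 times. The bin at 146882500, with 100 pairs at T0 and 97 at T6, had 30 at T48.

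The strongest far contact of the cluster joined the bins centred at 145152500 and 146897500, 1745 kb apart. For replicates 1 and 2 it had 484 and 657 counts in T0, 589 and 505 in T6, and 53 and 449 in T48. Both T48 counts were below all the others, with the far larger drop in replicate 1. After scaling to the library sum, T48 was also below T0 and T6 within each replicate number. The contact of 145037500 with 146022500, 985 kb apart, had 424 and 297 counts in T0, 415 and 241 in T6, and 327 and 293 in T48, so its libraries overlapped between times. The contact of 144997500 with 145172500, 175 kb apart, had 238 and 328 counts in T0, 257 and 335 in T6, and 63 and 131 in T48. Both T48 libraries were below all others there. The contact of 145042500 with 146017500, 975 kb apart, had 79 and 288 counts in T0, 67 and 287 in T6, and 58 and 118 in T48, and replicate 2 was above replicate 1 at each time.

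The 504 pairs that left the cluster mostly stayed close to it. The partner lay within 1 Mb of the cluster in 464 and further away in 40, and the longest pair spanned 9.63 Mb. The bin inside the cluster was in its last 200 kb in 303 pairs and in its first 200 kb in 97. The cluster segments between these edges therefore had few listed contacts with the flanking chromosome.

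At 6 h the number of listed pairs was closer to that of T0 in the cluster than in the whole list. The cluster had 2819 listed pairs at T6 and 2921 at T0, a ratio of 0.965, against 0.848 for chromosome 4 and 0.846 for all chromosomes. Among 2529 windows of 1 Mb with at least 200 pairs at T0, the 3 windows that start at 145, 146 and 147 Mb had T6 over T0 ratios of 0.975, 0.983 and 0.947, ranks 2493, 2503 and 2450 from the lowest, where the median was 0.846. Fewer pairs at T6 than at T0 were found for 157 of 332 listed cluster bins (47.3%), against 61.4% of listed bins on all chromosomes. Pairs listed at T0 alone were 859 (19.6%, against 24.7% of all pairs), and 223 were listed at T0 and T48 (5.08%, against 6.55%). Another 798 were listed at T6 alone (18.2%, against 19.1%) and 182 at T6 and T48 (4.14%, against 4.12%). At all 3 times 26.0% of cluster pairs were listed, against 14.9% of all pairs. The lists have no replicates, so these ratios have no test.

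Retention from T0 to T6 was higher in the cluster list than in the whole list at the distances given here. Of its T0 pairs of at least 500 kb, 62.4% were listed again at T6, against 11.1% on all chromosomes. The share was 66.7% in the cluster, against 38.5%, at 20 to 100 kb. The nearest pairs, at 5 to 20 kb, had 82.0% in the cluster, against 75.4%. The most listed pairs gained at 6 h were in the bin at 146792500, with 81 at T6 against 42 at T0, and in the bin at 145267500, with 47 at T6 against 12 at T0. The most were lost in the bins at 146127500, with 47 at T6 against 63 at T0, and at 145237500, with 36 at T6 against 49 at T0.

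Counts of the cluster did not pass the test for a change at 6 h. The fit took all 6 libraries, so only pairs listed at all 3 times were tested, 1142 in the cluster. The 697 cluster pairs listed at T0 and T6 but not at T48 were left out, although they have counts for this comparison. The tested pairs therefore depend on the T48 list, which was used in choosing the region. Of the 1142 pairs, 988 passed the filter on low counts among the 496203 pairs tested. With edgeR's quasi-likelihood test and Benjamini-Hochberg adjustment over the whole table at 0.05, 0 of the 988 were called for T6 over T0, as were 0.0% of all pairs tested. At an unadjusted p under 0.05 there were 25 of 988, 13 higher and 12 lower, against 3.17% of all pairs, and DESeq2 called 0. The median log2 ratio was 0.07 in the cluster and −0.00 over all pairs, and with 1 library left out the cluster median ran from −0.43 without T6 replicate 2 to 0.61 without T6 replicate 1.

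The cluster pairs with the lowest p for T6 over T0 had low counts. The contact of 145037500 with 145707500 had 9 and 7 counts at T6 against 25 and 18 at T0, a log2 ratio of −1.24 ± 0.318 (SE, edgeR adjusted p = 0.9999). The contact of 145052500 with 146317500 had 21 and 12 counts at T6 against 3 and 7 at T0, a log2 ratio of 1.87 ± 0.492 (SE, edgeR adjusted p = 0.9999). The groups did not overlap in either contact, which picking by the lowest p favours, and neither contact was called.

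Sums over larger stretches gave the same outcome. Of 42 cluster windows of 50 kb among 49387 tested, 0 were called by edgeR for T6 over T0 (0.0% of all windows), 0 were under an unadjusted p of 0.05 (1.73% of all windows), and DESeq2 called 0. The window from 147250001 to 147300000 had the lowest p, with 1222 and 622 counts at T6 against 1463 and 767 at T0, a log2 ratio of −0.10 ± 0.0771 (SE, edgeR adjusted p = 0.9999). Taken as 1 tile of 2.6 Mb, the cluster had 1145 and 2303 CPM, which is counts scaled to the library sum, at T6 against 1089 and 2110 at T0, with means of 1724 ± 819 and 1599 ± 722 (SD, n = 2 each). The edgeR log2 ratio was 0.11 ± 0.496 (SE, adjusted p = 0.998 over 999 tiles, of which 0.0% were called). Without T0 replicate 1 it was −0.29 and without T6 replicate 2 it was −0.48, while without T0 replicate 2 it was 0.66 and without T6 replicate 1 it was 0.53, so the sign followed which replicate number was left out at which time. The 2 replicates of a time differed by more than the means of the times did.

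Within each replicate number the T6 counts were slightly above T0. Of the 39 cluster windows with at least 20 counts in every library, 26 (66.7%) were higher at T6 than T0 in both replicate numbers. Another 3 were lower in both. Of all 48959 such windows, 27.1% were higher in both and 25.7% lower in both. Windows joined by a pair share its counts, so they are not separate measurements, here and in the comparison of T48 below. From 145 to 147.2 Mb, 24 of 31 windows were higher in both and 1 was lower in both. From 147.2 to 147.6 Mb, 2 of 8 windows were higher in both and 2 were lower in both. The rise was in part shared by windows elsewhere with a replicate 2 excess of at least 0.8 at all 3 times. Of these 268 windows, 54.9% were higher in both and 10.1% lower in both. The 21 such windows of the cluster had 76.2% higher in both and 0 lower in both. As a share of all counts of pairs listed at all 3 times, the cluster took 0.116% and 0.230% at T6 against 0.110% and 0.211% at T0. The shares of the groups overlapped. Over all listed pairs the cluster took 0.110% and 0.221% at T6 against 0.0959% and 0.185% at T0, with means of 0.166 ± 0.0785% and 0.140 ± 0.0628% (SD, n = 2 each), and the exact two-sided permutation p was 0.667, where the smallest that 2 against 2 allows is 0.333.

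At 48 h the cluster had fewer listed pairs, which is what chose it. It had 2039 at T48 and 2921 at T0, a ratio of 0.698, against 0.954 for chromosome 4 and 0.955 for all chromosomes. From 146 to 147 Mb there were 1112 listed pairs at T48 and 1757 at T0, a ratio of 0.633, which ranked 8 from the lowest among 2529 windows of 1 Mb with a median of 0.987. From 145 to 147.2 Mb the ratio was 0.669, and from 147.2 to 147.6 Mb it was 0.831. In the 0.5 Mb just outside the cluster the ratio was 0.930 before it and 0.868 after it. Pairs listed at T0 and T6 and missing at T48 were 697 of 4393 (15.9%), against 6.19% of all pairs.

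Losses at 48 h were uneven over distances and bins. Of the T0 pairs of the cluster, 45.7% of those of at least 500 kb were listed again at T48, against 12.5% on all chromosomes, while at 5 to 20 kb the shares were 68.3% and 81.7%. Fewer pairs at T48 than at T0 were found for 240 of 332 listed cluster bins (72.3%), against 50.3% on all chromosomes. The bins that lost most were at 147192500, with 18 pairs at T48 against 90 at T0, at 146882500, with 30 against 100, and at 145152500, with 33 against 87. The bin at 147092500 gained most, with 32 pairs at T48 against 12 at T0, followed by 147137500, with 17 against 3, and 145487500, with 22 against 11.

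Counts of pairs listed at all 3 times were set beside T0 for T48 as a description. The median log2 ratio of T48 over T0 was −0.28 in the cluster and 0.00 over all pairs, and with 1 library left out the cluster median ran from −0.76 without T0 replicate 1 to 0.16 without T0 replicate 2. Calls for T48 reuse the values that chose the region, and nothing is read from them. For T48 over T0, edgeR called 0 of the 988 cluster pairs (0.0% of all pairs), 64 were under an unadjusted p of 0.05 (5.52% of all pairs), and DESeq2 called 1 (71 of all 496203 pairs). In the 42 cluster windows edgeR called 0 (0.0263% of all windows), 2 were under an unadjusted p of 0.05 (8.59%), and DESeq2 called 0 (112 of all 49387 windows). For T48 over T6, edgeR called 0 of the 988 pairs (0.0%), 98 were under an unadjusted p of 0.05 (5.06%), and DESeq2 called 1 (63 of all pairs). In the windows edgeR called 0 (0.0182%), 2 were under an unadjusted p of 0.05 (6.72%), and DESeq2 called 0 (83 of all windows). At least 2-fold lower in both replicate numbers were 50 of 1142 cluster pairs (4.38%), against 0.262% of all pairs, and 0 were at least 2-fold higher (0.206% of all pairs). For T6 over T0 the same counts were 3 lower (0.263%, against 0.0807% of all pairs) and 8 higher (0.701%, against 0.113%).

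The contact of 145177500 with 147177500, which spans 2 Mb, had 14 and 22 counts at T48 against 148 and 80 at T0, a log2 ratio of −2.49. It had 110 and 80 counts at T6, and it is the pair that DESeq2 called in both T48 comparisons. The contact of 145137500 with 148987500 had 3 and 4 counts at T48 against 57 and 55 at T0, a log2 ratio of −3.87. The contact of 145197500 with 146942500 had 15 and 11 counts at T48 against 61 and 34 at T0, a log2 ratio of −1.74. These 3 contacts were picked for the lowest p for T48 over T0 in the cluster. Both T48 libraries were below both T0 libraries in them, which such a choice favours.

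As 1 tile, the cluster had 902 and 1474 CPM at T48 against 1089 and 2110 at T0, with means of 1188 ± 404 and 1599 ± 722 (SD, n = 2 each). The log2 ratio of −0.43 ranked 2 from the lowest among 999 tiles (0.0% called), and the T48 and T0 libraries overlapped. Without T0 replicate 2 it was 0.12. Within each replicate number, 27 of the 39 windows (69.2%) were lower at T48 than T0 in both, against 26.6% of all windows, and 0 were higher in both, against 36.6%. The medians were −0.14 in replicate 1 and −0.53 in replicate 2. Among windows with a replicate 2 excess of at least 0.8 at all 3 times, the 21 of the cluster had medians of −0.12 and −0.56 and 57.1% were lower in both, and the 268 elsewhere had medians of 0.03 and −0.08 and 35.4% were lower in both.

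Mostly different bins passed a 2-fold drop in the 2 libraries of T48, in the cluster as on all chromosomes. Bins were compared with T0 of the same replicate number, after scaling to the library sum, where both T0 libraries had at least 100 counts in pairs listed at all 3 times, which left 147 cluster bins. At least 2-fold lower at T48 were 41 of them (27.9%, against 0.607% of bins on all chromosomes), 9 in replicate 1 only, 29 in replicate 2 only and 3 in both. On all chromosomes the same split was 476, 282 and 91 of 139923 bins compared. For T6 over T0 there were 0 cluster bins at least 2-fold lower (0.272% on all chromosomes). No cluster bin was at least 2-fold higher at T48 in either replicate number (0.195% of bins on all chromosomes), and 1 was at T6 (0.680%, against 0.147%). With shares this low on all chromosomes, few or no such bins would be found among 147 in any case.

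The bin at 145137500 had 28 counts in T48 replicate 1 against 233 in T0 replicate 1, a log2 ratio of −2.85 after scaling. In replicate 2 it had 176 counts at T48 against 181 at T0, a log2 ratio of −0.07. The bin at 146882500 had log2 ratios of −1.51 in replicate 1 and −0.26 in replicate 2, and the bin at 147192500 had −1.72 and −0.19. These bins were low in T48 replicate 1 and near their T0 level in T48 replicate 2. Among the other bins 2-fold lower in replicate 1 only, 146717500 and 147187500 were higher in replicate 2 (0.50 and 0.40). Those at 145142500, 145152500, 145172500 and 146897500 were also lower in replicate 2, by less than 2-fold (−0.73, −0.49, −0.86 and −0.50).

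The opposite was found at 147167500, where T48 replicate 2 had 103 counts against 445 in T0 replicate 2, a log2 ratio of −2.14, and T48 replicate 1 had 159 against 206 in T0 replicate 1, a log2 ratio of −0.17. The bin at 146712500 had log2 ratios of −0.00 in replicate 1 and −1.99 in replicate 2, and the bin at 146032500 had −0.20 and −1.61. The bin at 145197500 was lower in both, with −1.15 and −1.11. Bins joined by a pair share its counts, so they are not separate measurements.

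**Figure D5:**
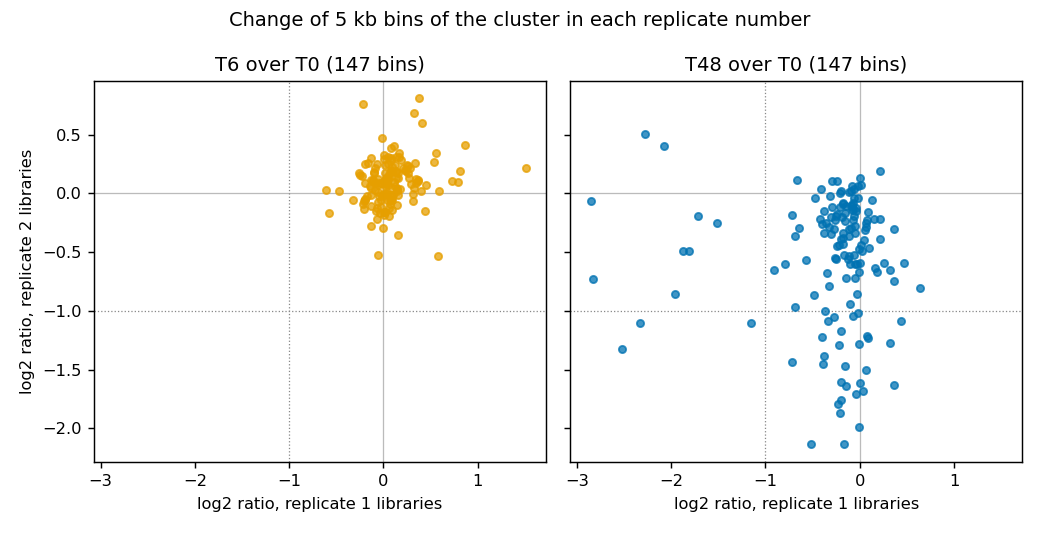
The log2 ratio to T0 of each of 147 cluster bins in the replicate 1 libraries (x axis) and in the replicate 2 libraries (y axis), for T6 over T0 and T48 over T0, with dotted lines at a 2-fold drop. The T6 points gather around 0, while at T48 a group of points extends left (down to −2.85) at smaller changes in replicate 2. A larger group extends down (to −2.14) at smaller changes in replicate 1.

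The 41 bins were picked for their lower counts at T48, so fewer listed pairs in them follow from the choice and the numbers are a description. Cluster pairs with at least 1 of the 41 bins were 579 at T48 and 1259 at T0, a ratio of 0.460, and the remaining cluster pairs were 1460 at T48 and 1662 at T0, a ratio of 0.878. Pairs with a bin lower in T48 replicate 1 only were 127 at T48 and 396 at T0. Pairs with a bin lower in T48 replicate 2 only were 462 at T48 and 936 at T0. At T6 the remaining pairs had a ratio to T0 of 0.975. What part the placement of reads in duplicated sequence has in these differences was not tested.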

How the data were processed

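Hi-C contacts were measured in 6 libraries of P19 cells, 2 each at T0, T6 and T48. The sample titles gave the group and the replicate number. Per the labels' protocols, crosslinked DNA was restricted, the ends were labelled with biotin, ligation followed, and streptavidin beads recovered the junctions. The tools named are CASAVA 1.8.2 and Bowtie2, with the build mm9, per the submitters' processing notes. For the restriction enzyme, the mapping-quality filter, the interaction caller and its threshold, values are not given in the sources used here. In the list the authors deposited, each row is a pair of 5 kb bins with raw read pair counts in 6 library columns, per the file headers, and these counts are not normalized.

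The members and lists were chosen with earlier results of these data known. The 4 mitochondrial pairs were left out. Lists were described by numbers of pairs, distances and shares of possible pairs, without replicates or a test. Counts of pairs listed at all 3 times were tested with edgeR 4.0.16 in R 4.3.3 (TMM, filterByExpr, quasi-likelihood F test, all 6 libraries in 1 fit, two-sided, Benjamini-Hochberg over the whole table at 0.05). The same fit was run on 50 kb windows, a pair counted once in each window that holds 1 of its bins, and on 2.6 Mb tiles. The fits were tested on simulated data with a fixed spread and no difference between replicate numbers, unlike the counts of the cluster. Alternatives were no filter on low counts, DESeq2 1.42.0, its size factors, the replicate block, leaving out each library, and stricter or other lists, of which the comparison of bins in each library, the split at 147.2 Mb, the ratios of replicate 2 over replicate 1 and the shares for pairs of at least 500 kb were added after seeing the data.

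Named pairs were the 3 per comparison with the lowest p, named windows the 2 with the lowest p, and named bins the 5 with the most listed pairs and the 3 with the largest gain or loss per comparison. Long contacts were the 5 of at least 100 kb with the highest mean count. From these the text gives those with values not yet shown. The bins compared within each library were picked after their values were seen. Promoters are RefSeq sequences of GRCm38.p6, and the gene list was not placed on mm9. Same-numbered libraries deviated together (Pearson's r of replicate differences over all pairs 0.398 between T0 and T6, 0.338 between T0 and T48, 0.337 between T6 and T48, and 0.821, 0.653 and 0.614 over cluster pairs). With 2 numbers and no label of a shared origin, the numbers were not taken to pair the samples in the tests. The tests therefore count the difference between the numbers as spread within a group. For T6 over T0 the SE of the tile's log2 ratio was 0.496, and 0.0747 with the replicate block. Comparisons within a replicate number are descriptions and not tests.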

Additional observations from a re-analysis of the deposited data

Results flagged for a closer look

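The share of counts that the cluster took, among pairs listed at all 3 times, was higher at T6 than at T0 and lower at T48 than at T0 in both replicate numbers. On the log2 scale, T6 over T0 was 0.0773 in replicate 1 and 0.12 in replicate 2, and T48 over T0 was −0.24 in replicate 1 and −0.50 in replicate 2. The difference between these opposite directions was not tested, both ratios share the T0 libraries, and T48 was used in choosing the region.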

How the results depend on the processing

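Pair calls in the cluster stayed at 0 in every alternative except DESeq2, which called 1 pair in T48 over T0 and 1 in T48 over T6, the same pair and lower at T48 both times. Leaving out each library gave 0 calls of pairs and of windows each time. A replicate block in the edgeR fit gave 0 called cluster windows for T6 over T0, 8 for T48 over T0 (310 of all 49387 windows) and 9 for T48 over T6 (193 of all windows). The tile under the replicate block had log2 ratios of 0.10 for T6 over T0 (edgeR adjusted p = 0.650), −0.39 for T48 over T0 and −0.49 for T48 over T6, and it was called in both T48 comparisons, as were 285 and 151 of 999 tiles. T48 was used in choosing the region, so nothing is read from these calls. The block changed no other call, and the numbers were not taken to pair the samples in the main fits. Without the block and with each library left out, the tile's log2 ratio ran from −0.48 to 0.66 for T6 over T0, from −0.83 to 0.12 for T48 over T0 and from −0.957 to 0.0526 for T48 over T6. The sign turned for T6 over T0 without T0 replicate 1 (−0.29) or T6 replicate 2 (−0.48), for T48 over T0 without T0 replicate 2 (0.12) and for T48 over T6 without T6 replicate 2 (0.0526), each of which leaves a time point with 1 library that is assumed to vary like the others. A stricter list, cut at 1.5 times the lowest count of each distance, gave listed-pair ratios of 0.641 for T48 over T0 (885 and 1381 pairs) and 0.658 for T48 over T6 (885 and 1345 pairs). Bins counted as listed from 5 pairs on left 53.8% of cluster bins unlisted. Of the values computed, 122 were counted as unchanged, by the call, the direction or the spread between libraries. These include the T48 ratios of the tile under the replicate block, which were judged by their size and not by the call. They also include the cluster's share of all listed counts at T6 minus T0, judged by the spread. It was 0.0257 percentage points, and it turned to −0.0188 without T0 replicate 1 and to −0.0298 without T6 replicate 2. Each group has 2 libraries and the median listed pair has 8 or 9 counts, which limits what a test of single pairs can show.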
